A study of Rattus norvegicus with 24 samples.

Results

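The miR-181 family in peripheral blood mononuclear cells (PBMC) of rats is described here through its 4 guide strands on the array, rno-miR-181a, rno-miR-181b, rno-miR-181c and rno-miR-181d, written below without the rno prefix. Members were chosen by name, as the non-control entries named exactly for each of them, and 4 of 4 were found among the 677 miRNAs of the array. Their passenger strands, marked with an asterisk on the array, are treated apart.

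Small RNA was measured on 24 one-colour Agilent arrays, in 12 groups of 2, and all animals were female Wistar rats. RA animals carried collagen-induced arthritis, raised by immunisation with bovine type II collagen in adjuvant, and NORA animals were healthy. RA and NORA were sampled before therapy (T0). AP, MTX, ANE and PLA are arthritic arms sampled 1 hour and 34 days into therapy, and NORA was sampled again at both times. AP (called MS in the study) had a short, thin needle inserted and twirled on both sides of the lower back and below the knees in each session. The study calls NORA and RA by the names NOCIA and CIA. MTX received methotrexate into the peritoneum every week and PLA received saline by the same route and schedule. ANE received no therapy and was anaesthetised for sampling with isoflurane where AP, MTX and PLA received ether. The study does not name the anaesthetic used for NORA or for RA before therapy. All animals were shaved and were killed at sampling, so the times are different animals, and their ages are not given in the sources used here. Nothing further ties the 2 samples of a group to separate cultures or litters, so p-values measure only the spread between these samples, part of which may be technical. PBMC separated on a density gradient hold lymphocytes and monocytes and may hold platelets and granulocytes. The labelled tissue was checked against markers fixed for it. The leukocyte miRNAs miR-142-3p and miR-142-5p and the lymphocyte miRNAs miR-150 and miR-342-3p were detected on all 24 arrays, as were myeloid miR-223, erythroid miR-451 and miR-144 and platelet miR-126.

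A microRNA is cut from a hairpin that can release a guide strand from one arm and a passenger strand from the other. The guide pairs with messenger RNAs mainly through its seed, bases 2 to 8, and lowers their output. miR-181a is best known from the thymus, where it raises the sensitivity of developing T cells to antigen, and miR-181 was among the first microRNAs tied to the lymphoid lineages of the blood. Its genes lie in clusters, each holding a pair of hairpins.

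The 4 mature sequences are shown because they share a seed while being made from different clusters. All 4 matched the RefSeq table (build GRCr8), where they carry the suffix 5p. Capitals mark the seed.
rno-miR-181a: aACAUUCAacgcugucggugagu
rno-miR-181b: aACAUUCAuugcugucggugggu
rno-miR-181c: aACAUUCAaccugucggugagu
rno-miR-181d: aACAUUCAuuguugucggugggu
Of 693 mature names in the table these 4 alone have this seed. Counted from 1 at the 5′ end, miR-181b differs from miR-181d by 1 substitution, C12U, and miR-181a from miR-181b by A9U, C10U and A21G. miR-181c is 22 bases long against 23 for the others and is 1 edit from miR-181a, 4 from miR-181b and 5 from miR-181d. By sequence the nearest pairs are therefore miR-181a with miR-181c and miR-181b with miR-181d.

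By position the pairs are different ones. On chromosome 13, plus strand, mature miR-181a lies at 52037081 to 52037103 and mature miR-181b at 52037263 to 52037285, with 61 bases between the Mir181a-1 and Mir181b1 hairpins, inside a long non-coding RNA gene. A second copy of mature miR-181a lies on chromosome 3, plus strand, at 43025601 to 43025623, and the Mir181b2 hairpin follows its hairpin after 986 bases. Both of these hairpins overlap the protein-coding gene Nr6a1 and also a long non-coding RNA gene. Both copies of miR-181a have the same mature sequence, so the array reads their sum. On chromosome 19, plus strand, mature miR-181c lies at 40888314 to 40888335 and mature miR-181d at 40888484 to 40888506, with 77 bases between their hairpins and no other listed gene over them.

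All 4 members were detected on 24 of 24 arrays. The array carries 2 probes for each, with 10 spots a probe. All 20 spots of every member lay well above background on every array, no member spot was saturated, and 76 of the 1920 member spots were set aside by the scanner software as outliers. Over the 24 arrays the scaled log2 levels of the 2 probes of a member correlated with r from 0.974 (miR-181d) to 0.990 (miR-181c). The 2 probes of each member thus agreed, and the values below are its total intensity. Whether the probes of a member also read the others, which differ from it by few bases, was not tested.

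Levels are given on a log2 scale after scaling, in which each array's total intensities were multiplied so that the 75th percentile of the 132 miRNAs found on all arrays was equal. Levels of different members come from different probes and are not compared with each other. Before scaling, the total intensity of miR-181a ran from 663 to 1257 over the 24 arrays, a 1.90-fold range, and that of miR-181b from 92.7 to 209. That of miR-181c ran from 85.1 to 823, a 9.68-fold range, and that of miR-181d from 102.5 to 995. The summed intensity of all detected miRNAs ran from 137544 to 519917, a 3.78-fold range. The unscaled signal of miR-181a therefore spread less than the summed signal of the arrays, and that of miR-181c spread more.

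**Figure D1:**
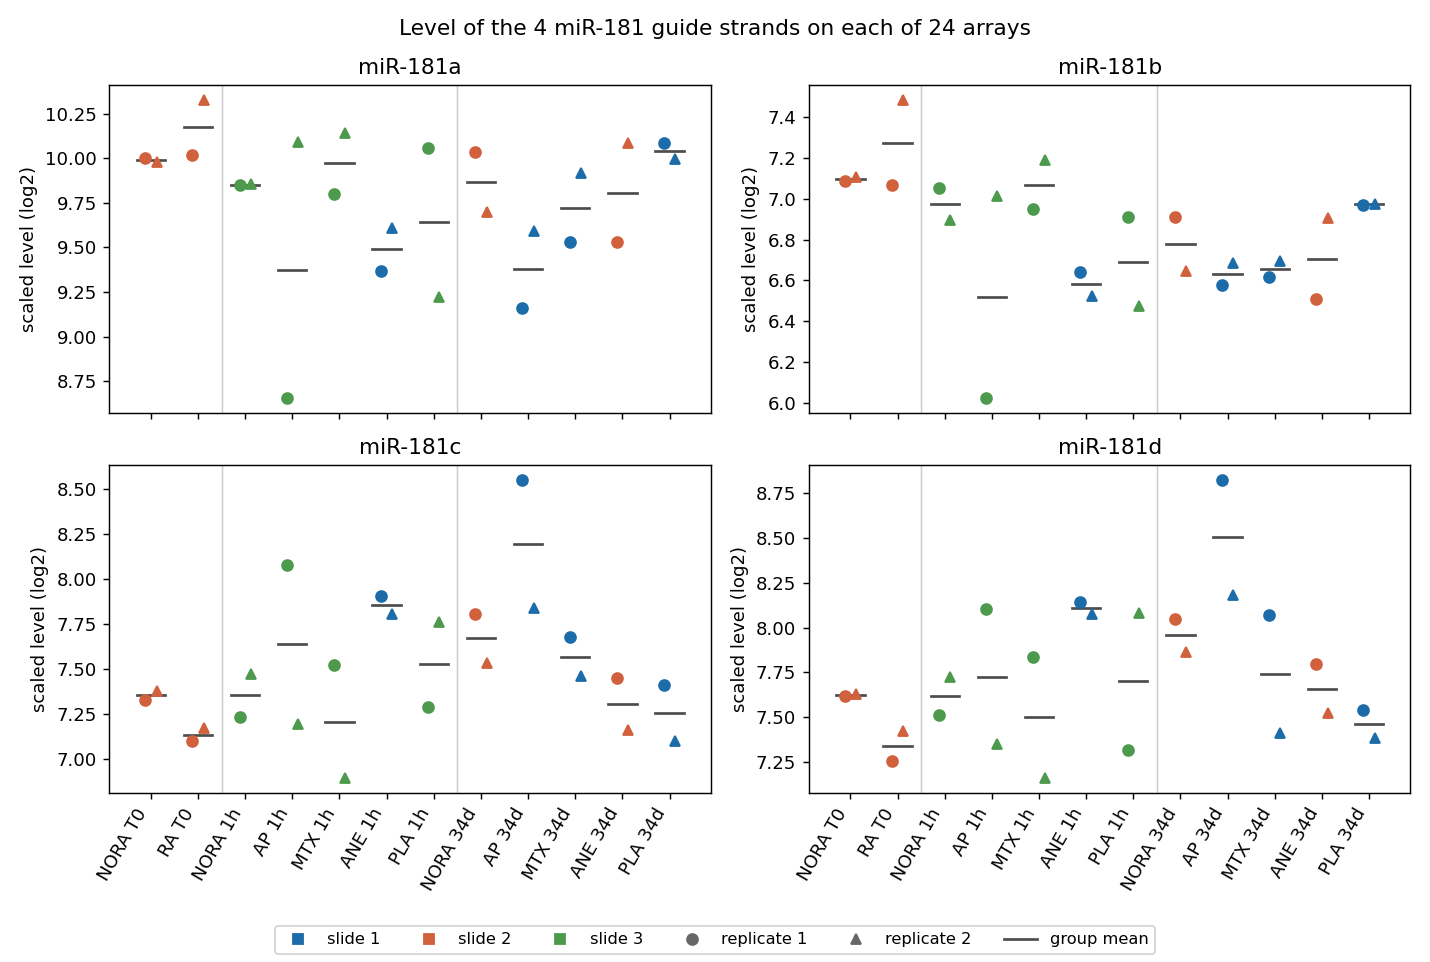
Scaled log2 level of each member (vertical axes, 1 panel a member, each with its own range) by group on the horizontal axis, with 1 point an array, shape for the replicate, colour for the slide and a line at the mean of 2 arrays. For miR-181c and miR-181d the AP arrays at 34 days include the highest value of all 24 (8.55 and 8.82), while for the scaled values of miR-181a and miR-181b the highest is RA replicate 2 before therapy (10.33 and 7.49) and the lowest is AP replicate 1 at 1 hour.

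miR-181a had a median scaled level of 9.88 over the 24 arrays, from 8.66 in AP replicate 1 at 1 hour to 10.33 in RA replicate 2 before therapy. Its group means were ordered from RA before therapy (10.17 ± 0.22, SD, n = 2), PLA at 34 days (10.04 ± 0.07) and NORA before therapy (9.99 ± 0.01) down to ANE at 1 hour (9.49 ± 0.17), AP at 34 days (9.38 ± 0.30) and AP at 1 hour (9.37 ± 1.01). None of the 11 steps between neighbours in this order was larger than the larger SD of the 2 groups.

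miR-181b had a median of 6.91, from 6.02 to 7.49 on the same 2 arrays. Its order began with RA before therapy (7.28 ± 0.30), NORA before therapy (7.10 ± 0.01) and MTX at 1 hour (7.07 ± 0.17) and ended with AP at 34 days (6.63 ± 0.08), ANE at 1 hour (6.58 ± 0.08) and AP at 1 hour (6.52 ± 0.70). The ends of the order were those of miR-181a, and 1 of 11 steps was larger than the larger SD.

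miR-181c had a median of 7.45, from 6.89 in MTX replicate 2 at 1 hour to 8.55 in AP replicate 1 at 34 days. The highest group means were those of AP at 34 days (8.19 ± 0.51, SD, n = 2), ANE at 1 hour (7.85 ± 0.07) and NORA at 34 days (7.67 ± 0.19), and the lowest were PLA at 34 days (7.25 ± 0.22), MTX at 1 hour (7.21 ± 0.44) and RA before therapy (7.13 ± 0.05). The order ran nearly opposite to that of miR-181a, and 0 of 11 steps were larger than the larger SD.

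miR-181d had a median of 7.68, from 7.16 to 8.82 on the same 2 arrays as miR-181c. AP at 34 days (8.50 ± 0.45), ANE at 1 hour (8.11 ± 0.05) and NORA at 34 days (7.96 ± 0.13) again came first, and MTX at 1 hour (7.50 ± 0.48), PLA at 34 days (7.47 ± 0.11) and RA before therapy (7.34 ± 0.12) last. Here 2 of 11 steps were larger than the larger SD. Pooled over the groups, the SD between replicates was 0.40 for miR-181a, 0.27 for miR-181b, 0.31 for miR-181c and 0.33 for miR-181d, beside a median of 0.28 over the 132 miRNAs.

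Arthritis itself was addressed by RA against NORA before therapy, made within 1 slide. miR-181a was at 10.02 and 10.33 in RA against a mean of 9.99 ± 0.01 (SD, n = 2) in NORA, and miR-181c at 7.10 and 7.17 against 7.33 and 7.38. The RA arrays lay above the NORA arrays for miR-181a and below them for miR-181c, by small amounts. How many other miRNAs keep 2 groups apart in this way is not given. Such gaps, here and below, are no result about the members. The differences ran from -0.28 (miR-181d) to 0.19 (miR-181a), and limma called 0 of 4 members, with adjusted p from 0.944 to 0.980, while 0.952% of the 210 miRNAs tested were called. A call is an adjusted p under 0.05 over the 210 miRNAs. Hepatic miR-122, which mononuclear cells should lack, was called lower in RA in this comparison (-5.14).

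The largest changes of miR-181c and miR-181d against RA before therapy were those of AP at 34 days, where both rose about 2-fold. miR-181c was at 8.55 and 7.84 in AP against 7.10 and 7.17 in RA. miR-181d was at 8.82 and 8.18 against 7.26 and 7.43. For both, each AP array lay above each RA array, and AP replicate 1 stood highest. The change of miR-181c was 1.06 (log2, SE 0.30, limma adjusted p = 0.0383), a fold of 2.09. That of miR-181d was 1.16 (SE 0.32, adjusted p = 0.0383), a fold of 2.24.

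The products of the other clusters lay on the opposite side in the same comparison. miR-181a was at 9.16 and 9.59 in AP against 10.02 and 10.33 in RA. miR-181b was at 6.58 and 6.68 against 7.07 and 7.49. Each AP array lay below each RA array, and neither member was called. With the scaled values the change was -0.80 (SE 0.38, adjusted p = 0.111) for miR-181a and -0.65 (SE 0.26, adjusted p = 0.0712) for miR-181b, and without scaling both turned positive, at 0.40 and 0.55.

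In that comparison 2 of 4 members were called, both higher, while 19.0% of the 210 miRNAs tested were called and 15.7% were called higher. The median change of the 4 members was 0.21 and that of all 210 was 0.16, and the median size of change was 0.93 against 0.69. The methods of the study set the threshold at a fold above 2 together with an unadjusted p under 0.05. By it miR-181c and miR-181d also passed, being detected on every array, as did 17.6% of the 210. Both probes of each member gave the change, with 1.06 and 1.05 for the probes of miR-181c and 1.05 and 1.21 for those of miR-181d.

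The 2 calls depended on the arrays. They were lost when either RA array was left out (adjusted p = 0.131 and 0.115) or AP replicate 1 (0.464, with changes of 0.70 and 0.84), and held without AP replicate 2 (0.0116 for miR-181c and 0.0132 for miR-181d), where the lone AP array was assumed to vary like the other groups. They were also lost in 7 of 14 alternative fits, and their direction turned in none of these fits. The AP arrays lay on another slide than the RA arrays, so slide and group cannot be told apart here.

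**Figure D2:**
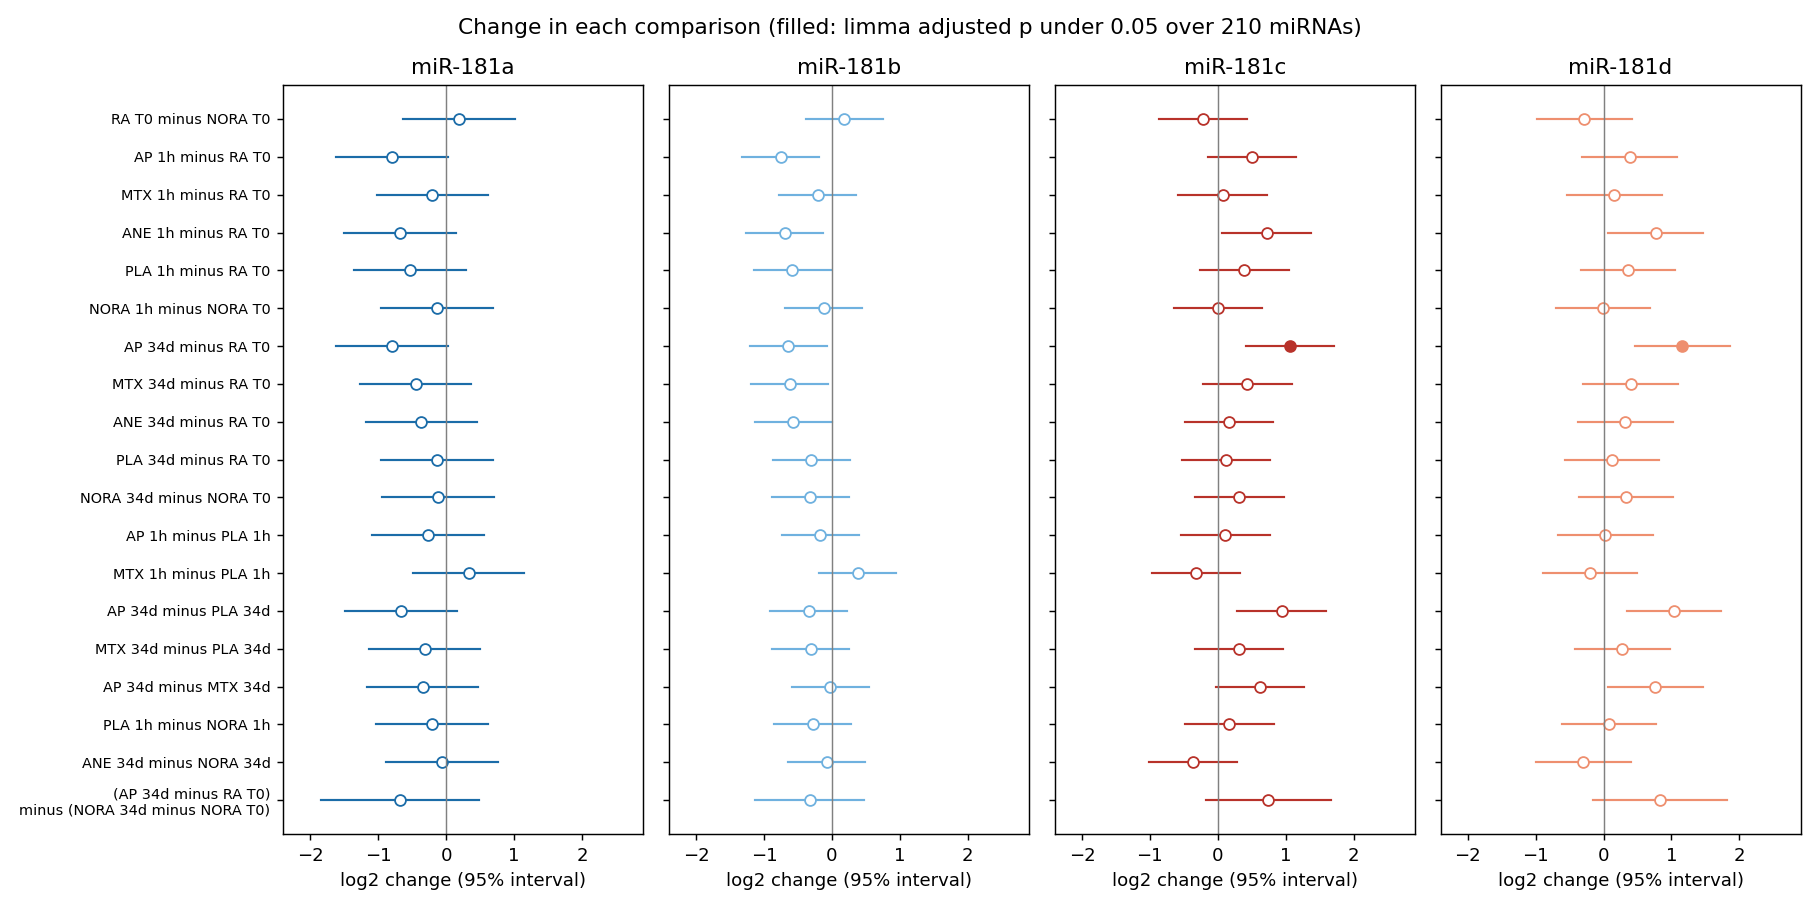
Log2 change of each member (horizontal axis, 1 panel a member) in each of the 19 comparisons (vertical axis), as points with 95% intervals from limma, filled where the adjusted p was under 0.05. Only miR-181c and miR-181d in AP at 34 days against RA before therapy, at 1.06 and 1.16, are filled.

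Markers of other cells moved beside these changes. In the AP arrays at 34 days the summed scaled level of the 2 lymphocyte miRNAs on the array, of 3 listed, was 10.52 and 12.71 (log2) against 13.64 and 13.74 in RA. Sums over a list are given with the lower array first, here and below, and not by replicate number. miR-150, the best known of them, was at 9.55 and 12.43 against 13.38 and 13.47 (change -2.43, SE 0.89, adjusted p = 0.0549). miR-342-3p changed by -1.29 (SE 0.48, adjusted p = 0.0549). Neither was called, and AP replicate 1 was lowest for both.

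Myeloid miR-223 was at 13.57 and 13.08 in AP against 12.26 and 12.60 in RA and was called higher (0.89, SE 0.25, adjusted p = 0.0383). The platelet list, with miR-126 and the mostly undetected miR-126*, summed to 6.77 and 7.68 against 6.06 and 6.25, and miR-126 changed by 1.17 (SE 0.47, adjusted p = 0.0663). The leukocyte list summed to 13.49 and 13.83 in AP against 13.27 and 13.85 in RA, and the erythroid list, 2 of 3 on the array, to 12.19 and 13.09 against 12.07 and 14.72. Hepatic miR-122 had a scaled log2 level of at most 2.69 on these 4 arrays, near the floor of 2.53 set on the scale. None of the defining markers of these blood cells was at 0. In RNA of mixed cells, fewer cells of a type and less RNA per cell cannot be told apart, and the part of these markers in the result was not tested.

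The summed intensity moved with the members too. AP replicates 1 and 2 at 34 days had summed intensities of 519917 and 305171, the highest of the 24 arrays and the next but one, against 167322 and 163860 in RA before therapy. Over the 24 arrays, the scaled level correlated with the log2 of the summed intensity with r of -0.78 for miR-181a, -0.77 for miR-181b, 0.86 for miR-181c and 0.82 for miR-181d. Without replicate 1 of AP at both times, over 22 arrays, these were -0.65, -0.78, 0.71 and 0.70. The arrays share their scaling in these values, and the part of the signal strength in the result was not tested.

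AP against PLA at 34 days lay within 1 slide and was free of the slide. miR-181c was at 8.55 and 7.84 in AP against 7.41 and 7.10 in PLA, and miR-181d at 8.82 and 8.18 against 7.54 and 7.39. The AP arrays again lay above the PLA arrays for both. The changes were 0.94 (SE 0.30, limma adjusted p = 0.0622) and 1.04 (SE 0.32, adjusted p = 0.0622), and no member was called, while 0% of the 210 miRNAs were called and 40.0% had an unadjusted p under 0.05. By the fold threshold of the methods 1 of 4 members passed, miR-181d, beside 14.8% of the 210. miR-181a differed by -0.66 and miR-181b by -0.34 on the scaled values and by 0.38 and 0.70 without scaling, and neither passed the test with scaling, while without it miR-181b did (adjusted p = 0.0293). Without AP replicate 1 the changes of miR-181c and miR-181d were 0.58 and 0.72 (adjusted p = 0.585 for both). Without AP replicate 2 both were called (changes of 1.30 and 1.36, adjusted p = 0.0183 and 0.0215), on 1 AP array assumed to vary like the other groups. Markers moved here too. The lymphocyte list had a median change of -1.61, with miR-150 at -2.27 (adjusted p = 0.0832), the erythroid list one of -1.27, platelet miR-126 changed by 1.29 (adjusted p = 0.0701) and myeloid miR-223 by 0.41 (adjusted p = 0.220). None of these was called, and their part in the result was not tested.

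AP against MTX at 34 days, also within 1 slide, compared needling with the drug. miR-181d was at 8.82 and 8.18 in AP against 8.07 and 7.41 in MTX, so that the lower AP array lay just above the higher MTX array. Its change was 0.76 (SE 0.32, limma adjusted p = 0.259), and 0 of 4 members were called, with 0% of the 210. The change was 0.44 without AP replicate 1 and 0.43 without MTX replicate 2 (adjusted p = 1 for both). MTX against PLA at 34 days gave changes from -0.32 to 0.31, with 0 of 4 members and 0% of the 210 called. The 95% interval of the difference between MTX and PLA was -0.34 to 0.97 for miR-181c and -0.42 to 0.97 for miR-181d, which holds both no change and a change of 0.94, that of miR-181c in AP against PLA.

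At 1 hour, AP against PLA gave changes from -0.27 to 0.11 and 0 of 4 members called, while 0.952% of the 210 were called. MTX against PLA gave -0.32 to 0.38 and 0 of 4 members called, with 0% of the 210. PLA against NORA gave -0.28 to 0.17, again with 0 of 4 members and 0% called. The 3 comparisons lay within 1 slide and their unadjusted p-values all exceeded 0.05 for every member.

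ANE at 1 hour came next after AP at 34 days in mean level of miR-181c and miR-181d. miR-181c was at 7.90 and 7.81 in ANE against 7.10 and 7.17 in RA before therapy (0.72, SE 0.30, limma adjusted p = 0.263). miR-181d was at 8.14 and 8.08 against 7.26 and 7.43 (0.77, SE 0.32, adjusted p = 0.263). miR-181b was at 6.64 and 6.52 against 7.07 and 7.49 (-0.70, SE 0.26, adjusted p = 0.263). For these members the directions were the same without scaling. Of the 4 members 0 were called, while 0.476% of the 210 were called. The ANE and RA arrays lay on different slides, and ANE was the arm anaesthetised with isoflurane. The lymphocyte list summed to 12.43 and 12.59 in ANE against 13.64 and 13.74 in RA. Myeloid miR-223 was at 13.31 and 13.67 in ANE against 12.26 and 12.60 in RA, with the lower array first. Hepatic miR-122 was called higher (4.58). The part of these markers was not tested.

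AP at 1 hour differed between its replicates more than from RA before therapy. miR-181a was at 8.66 and 10.09, miR-181b at 6.02 and 7.01, miR-181c at 8.08 and 7.19 and miR-181d at 8.10 and 7.35. Replicate 1 was below every RA array for miR-181a and miR-181b and above every RA array for miR-181c and miR-181d. Replicate 2 lay within the RA range or just beside it for all 4. On the scaled values miR-181b changed by -0.76 (SE 0.26, limma adjusted p = 0.241), which without scaling became 0.14, and 0 of 4 members were called, with 0% of the 210. Without replicate 2, the fit called miR-181a (-1.52, adjusted p = 0.0132) and miR-181b (-1.25, adjusted p = 0.00422), which then rested on 1 AP array assumed to vary like the other groups. The summed intensity of replicate 1 was 371061 against 186549 for replicate 2. The lymphocyte list summed to 10.73 on one AP array and 13.53 on the other, against 13.64 and 13.74 in RA, with a median change of -1.46. The part of either in the result was not tested.

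The other arms against RA before therapy gave smaller differences. miR-181b had an unadjusted p under 0.05 in PLA at 1 hour (-0.58, SE 0.26, limma adjusted p = 0.567), MTX at 34 days (-0.62, SE 0.26, adjusted p = 0.658) and ANE at 34 days (-0.57, SE 0.26, adjusted p = 1). In MTX at 1 hour and PLA at 34 days no member did. Of the 4 members, 0 were called in each of these 5 comparisons, while of the 210 miRNAs 1.43% were called in MTX at 1 hour, 0.952% in PLA at 1 hour, and 0% in MTX, in ANE and in PLA at 34 days.

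Over the 8 arms and times set against RA before therapy, the scaled changes of miR-181a ran from -0.80 to -0.13 and those of miR-181b from -0.76 to -0.21, all below 0. Those of miR-181c ran from 0.07 to 1.06 and those of miR-181d from 0.12 to 1.16, all above 0. The 8 comparisons share the same 2 RA arrays, so these are not separate observations. The signs also depended on the scaling. Without scaling miR-181a was lower in 4 of 8 and miR-181b in 6 of 8, with the percentile taken over all miRNAs miR-181c was higher in 5 of 8 and miR-181d in 6 of 8, and in the log2 table of the authors miR-181c was higher in 6 of 8.

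Healthy animals were followed over the same times. NORA at 1 hour differed from NORA before therapy by -0.14 to 0.00, with 0 of 4 members called while 2.38% of the 210 were called. NORA at 34 days differed by -0.32 (miR-181b) to 0.33 (miR-181d), with 0 of 4 called beside 0.952%. miR-181c was at 7.81 and 7.53 in NORA at 34 days against 7.33 and 7.38 before therapy, and miR-181d at 8.05 and 7.86 against 7.62 and 7.63. These arrays did not overlap either, although they came from untreated healthy animals. ANE against NORA at 34 days gave -0.37 to -0.06, with 0 of 4 members and 0% of the 210 called.

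Whether the change over time in AP differed from that in NORA was tested directly. The difference between the changes was 0.74 (SE 0.43, limma adjusted p = 0.465) for miR-181c and 0.83 (SE 0.46, adjusted p = 0.465) for miR-181d, with 95% intervals from -0.18 to 1.66 and from -0.16 to 1.82. No member was called, beside 0.476% of the 210. The rise of miR-181c and miR-181d in AP was therefore not shown to differ from the change in healthy animals, nor shown to be the same.

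In all, 2 of 76 tests of a member in a comparison were called and 13 had an unadjusted p under 0.05. By comparison, 0% to 19.0% of the 210 miRNAs were called and 1.9% to 48.6% had an unadjusted p under 0.05. The 19 comparisons share arrays, so the 76 tests are not separate observations.

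A difference between 2 members on the same array does not depend on any scaling of that array. It was examined after the levels had been seen. Over the 24 arrays the log2 difference between miR-181b and miR-181a had an SD of 0.17, and that between miR-181d and miR-181c an SD of 0.11. Of the 8646 pairs that the 132 miRNAs form, 5.40% and 0.960% had a smaller SD. Such closeness was not particular to these pairs. Members whose genes lie side by side thus kept nearly the same ratio on every array. For miR-181c and miR-181d this is 1 cluster, while for miR-181a and miR-181b the array adds the products of the clusters on chromosomes 13 and 3.

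Between miR-181a or miR-181b and miR-181c or miR-181d the ratio varied more. The SD was 0.72 for miR-181c against miR-181a, 0.73 for miR-181d against miR-181a, 0.63 for miR-181c against miR-181b and 0.63 for miR-181d against miR-181b. The median over all 8646 pairs was 0.47. The share of pairs with a smaller SD was 72.9% for miR-181c with miR-181a and 73.4% for miR-181d with miR-181a. It was 65.7% for miR-181c with miR-181b and 66.2% for miR-181d with miR-181b. Members of different clusters therefore varied against each other more than most pairs of the 132, although miR-181a and miR-181c differ by 1 edit and miR-181b and miR-181d by 1 base. Without replicate 1 of AP at both times the SD was 0.52 for miR-181c against miR-181a and 0.14 for miR-181b against miR-181a.

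**Figure D3:**
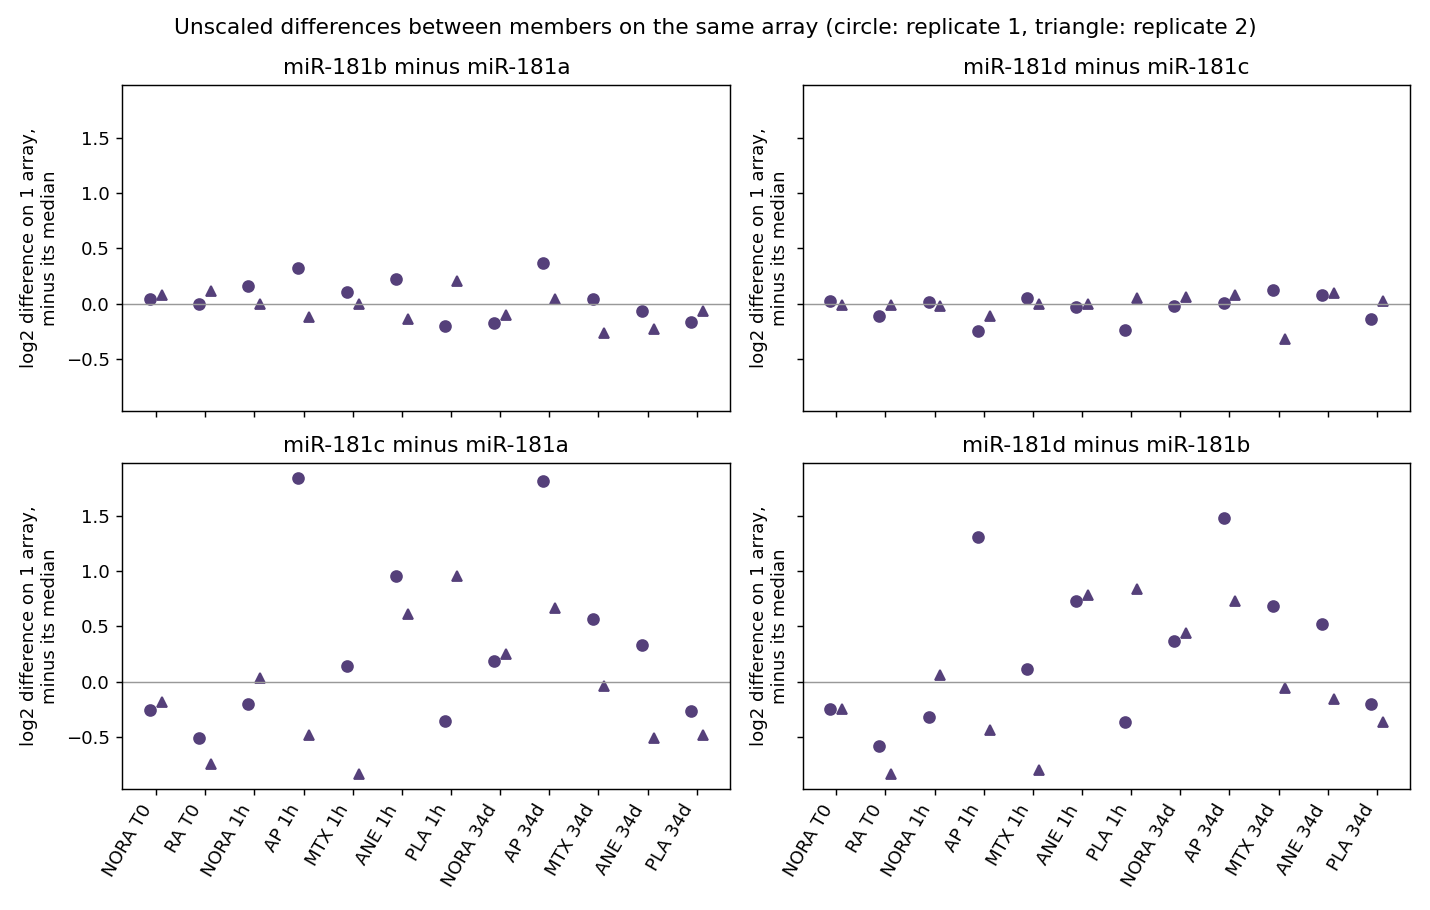
Unscaled log2 difference between 2 members on the same array, minus its median over the 24 arrays (vertical axes, shared range), by group (horizontal axis), with 1 point an array. The upper panels pair members whose genes lie side by side and stay near 0 (SD 0.17 and 0.11), and the lower panels pair near-identical sequences from different clusters and reach 1.84 and 1.48.

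The ratio of miR-181c to miR-181a, as its log2 difference from the median over arrays, was 1.81 and 0.66 in AP at 34 days. It was -0.50 and -0.74 in RA before therapy, -0.26 and -0.48 in PLA at 34 days, and 0.95 and 0.61 in ANE at 1 hour. In AP at 1 hour it was 1.84 in replicate 1 and -0.48 in replicate 2. The ratio of miR-181d to miR-181b was 1.48 and 0.73 in AP at 34 days and -0.58 and -0.83 in RA. AP at 34 days and ANE at 1 hour were thus above the median on both arrays, and RA below it on both. Healthy NORA at 34 days was also above it on both, at 0.19 and 0.25 for miR-181c to miR-181a and 0.37 and 0.44 for miR-181d to miR-181b. NORA before therapy (-0.26 and -0.18 for miR-181c to miR-181a) and PLA at 34 days were below it on both, as RA was.

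Tested with each array centred on miR-181b, AP at 34 days against RA before therapy gave 1.71 for miR-181c (SE 0.51, limma adjusted p = 0.0296) and 1.81 for miR-181d (SE 0.52, adjusted p = 0.0296). Centred on miR-181a, the changes were 1.86 (SE 0.63, adjusted p = 0.0631) and 1.96 (SE 0.65, adjusted p = 0.0631), which were not called. Centring on a member shifts every miRNA of an array by the same amount. The share of all miRNAs called under it is not given here, so these adjusted p-values are no result about the members alone. miR-181b relative to miR-181a changed by 0.15 (SE 0.28, adjusted p = 0.649). Against PLA at 34 days, the change relative to miR-181b was 1.28 for miR-181c and 1.38 for miR-181d (adjusted p = 0.108 for both). A ratio shows that members changed unequally and not which of them moved. The ratios also followed the summed intensity of the arrays, with r of 0.86 for miR-181c to miR-181a and 0.87 for miR-181d to miR-181b over 24 arrays.

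The same division appeared in how the members moved together. As a description over the 24 arrays, which share groups, slides and the scaling, the scaled levels of miR-181a and miR-181b correlated with r = 0.91 and those of miR-181c and miR-181d with r = 0.96. Between members of different clusters r was -0.80 (miR-181a with miR-181c), -0.77 (miR-181a with miR-181d), -0.72 (miR-181b with miR-181c) and -0.66 (miR-181b with miR-181d). Without scaling the first 2 pairs kept r of 0.82 and 0.99, while those between clusters became positive, from 0.46 to 0.72, so the negative sign belongs to the scaled values. Within the 3 slides of 8 arrays, r between miR-181a and miR-181c was -0.91, -0.40 and -0.93. Over the differences between the 2 replicates of the 12 groups it was -0.75. On the scaled values, the division between clusters was thus also present between samples of the same group. For these differences no r without scaling is given.

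Among the 128 other miRNAs detected on all arrays, 124 had correlations of opposite sign with miR-181a and with miR-181c, 123 of the same sign with miR-181a and miR-181b, and 125 of the same sign with miR-181c and miR-181d. On the scaled values, most of these 128 thus sided with one cluster against the other. Such counts follow in large part from the correlations between the members given above, so they are no separate support for the contrast.

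miR-181a was most like miR-342-5p, miR-7a and miR-342-3p (r = 0.93 for each, 24 arrays) and least like miR-19a (-0.86), miR-32 (-0.83) and miR-18a (-0.81). miR-181b was most like miR-342-3p (0.92), miR-342-5p (0.86) and miR-363 (0.85) and least like miR-19a, miR-497 (both -0.76) and miR-32 (-0.75). miR-181a and miR-181b thus shared miR-342, a lymphocyte miRNA, as nearest neighbour. miR-181c was most like miR-130a (0.97), miR-17-5p (0.95) and miR-20b-5p (0.95) and least like miR-342-5p (-0.90), miR-1949 (-0.89) and miR-150 (-0.88). miR-181d was most like miR-17-5p (0.98), miR-130a (0.97) and miR-128 (0.97) and least like miR-362* (-0.87), miR-342-5p (-0.85) and miR-150 (-0.83). For each member the most like of these was closer to it than the member whose gene lies beside its own. That r was 0.91 for miR-181a with miR-181b and 0.96 for miR-181c with miR-181d. Without scaling the likeness of miR-181c to miR-130a was 0.99 and that of miR-181a to miR-342-5p fell to 0.41, while miR-181a with miR-19a turned to 0.40.

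**Figure D4:**
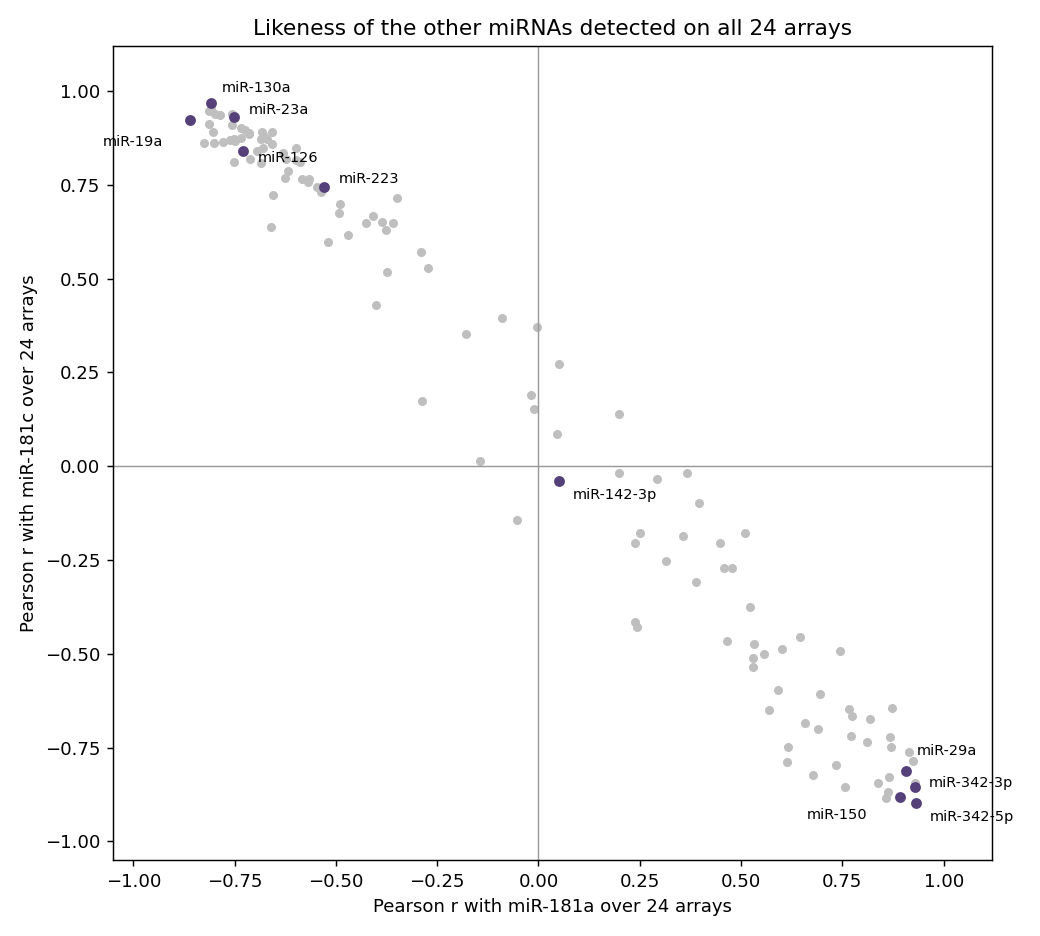
Pearson correlation over 24 arrays of the scaled level of each of the 128 other miRNAs detected on all arrays with miR-181a (horizontal axis) and with miR-181c (vertical axis), with some of the miRNAs named in the text labelled. Points run from miR-130a and miR-19a at the upper left to miR-342-5p and miR-150 at the lower right, with 124 of 128 of opposite sign, and some of the signs with miR-181a turn without scaling.

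Of the marker miRNAs, miR-150 had r of 0.89 with miR-181a and -0.88 with miR-181c, miR-223 had -0.53 and 0.75, miR-126 had -0.73 and 0.84, and the general leukocyte miRNA miR-142-3p had 0.05 and -0.04, all on the scaled values. Without scaling, miR-150 had 0.08 and -0.70, and miR-223 had 0.48 and 0.95. The other lymphocyte marker, miR-342-3p, had 0.93 with miR-181a and -0.85 with miR-181c on the scaled values, and 0.62 and -0.13 without scaling. On the scaled values miR-181a thus moved with both lymphocyte markers and miR-181c against both, while without scaling the markers differed in which of these they kept.

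A list of miRNAs known from lymphoid development and activation was set beside the family, with 8 of its 10 entries on the array under their listed names and all 8 detected on every array. In AP at 34 days against RA before therapy 1 of 8 was called, higher, and none lower, beside 19.0% of the 210 called and 15.7% called higher, with a median change of -0.49 beside 0.16 over all 210. The call was miR-17-5p, of the miR-17-92 cluster that supports lymphocyte growth and survival (0.86, SE 0.23, limma adjusted p = 0.0383). miR-146a, a brake on inflammatory signalling, was at 7.31 and 8.42 in AP against 9.37 and 9.41 in RA (-1.52, SE 0.53, adjusted p = 0.0526). miR-29a changed by -0.80 (SE 0.36, adjusted p = 0.0960) and miR-92a by 0.42 (SE 0.21, adjusted p = 0.123). In AP against PLA at 34 days 0 of 8 were called, beside 0% of the 210, with a median of -0.54 beside 0.21.

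The passenger strands were detected on fewer arrays than the guides. Of the 6 on the array, miR-181a-2*, miR-181b-1*, miR-181b-2* and miR-181d* were detected on 0 of 24 arrays. miR-181a-1*, the opposite arm of the Mir181a-1 hairpin on chromosome 13, was detected on 23 of 24, all but ANE replicate 1 at 1 hour. RefSeq gives 22 bases for it, shown with bases 2 to 8 in capitals because this strand tells the chromosome 13 copy of miR-181a from the chromosome 3 copy.
miR-181a-1*: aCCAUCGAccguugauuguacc
Its scaled log2 level ran from 2.64 in AP replicate 1 at 1 hour to 5.66 in RA replicate 2 before therapy, and over the 23 arrays it correlated with miR-181a with r = 0.87 and with miR-181c with r = -0.82. It was at 2.84 and 4.32 in AP at 34 days against 5.58 and 5.66 in RA (-2.04, SE 0.88, limma adjusted p = 0.0825), which was not called. On the scaled values, in which both strands share the scaling of each array, miR-181a-1* thus moved with its guide strand. Its lowest values lie near that floor. Before scaling, miR-181a-1* had intensities of 15.7 and 29.0 in AP at 34 days against 34.9 and 42.0 in RA. Those of miR-181a were 1257 and 1116 against 758 and 1070, so without scaling the strands moved apart in this comparison. No r without scaling is given for them.

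**Figure D5:**
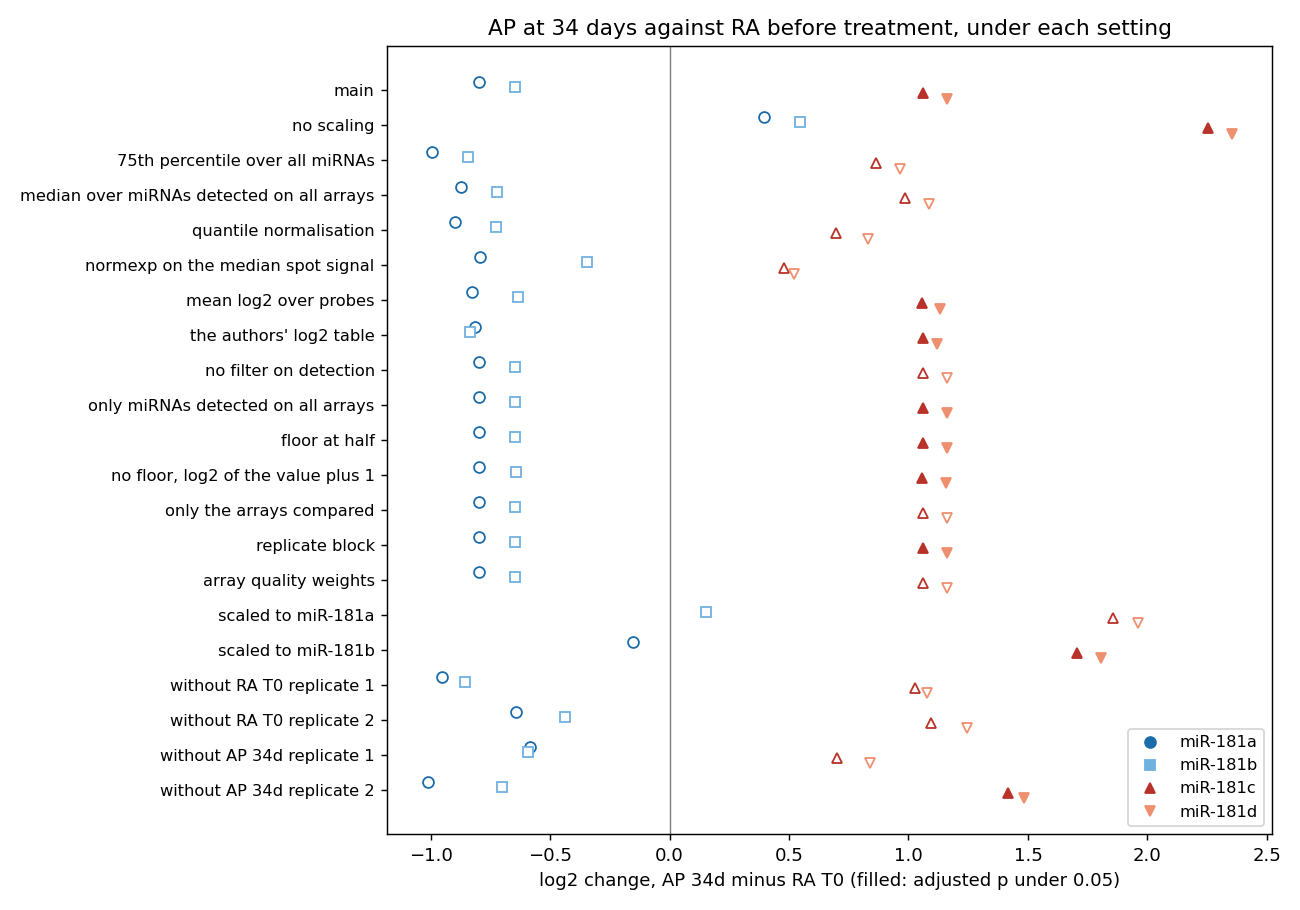
Log2 change of each member in AP at 34 days against RA before therapy (horizontal axis) under each processing setting and with each array left out (vertical axis), filled where the limma adjusted p was under 0.05. The changes of miR-181c and miR-181d stay above 0 throughout, from 0.48 to 2.35, and those of miR-181a and miR-181b lie below 0 except without scaling, at 0.40 and 0.55, and, for miR-181b, relative to miR-181a, at 0.15.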

How the data were processed

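PBMC small RNA was labelled with Cy3 and hybridised to 24 one-colour arrays, and per the file headers the images were read with Feature Extraction 10.7.3.1. The scanner values that the authors deposited are background-corrected linear intensity values, not normalised between arrays, which the software summed over the spots of each miRNA. The authors also deposited a log2 table of the same arrays, tied to RMA by the submitters' processing notes, in which every one of 24 columns correlated most with the array it is named for. The study tested its arrays with limma.

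Total intensities were scaled to an equal 75th percentile over the 132 miRNAs detected on all arrays (factors 0.452 to 1.42), floored at 5.76 and put on a log2 scale. Those 210 miRNAs found on 3 or more arrays were fitted with 12 group means in limma 3.58.1 (R 4.3.3) on all 24 arrays with 12 residual degrees of freedom, for 19 comparisons. Tests were two-sided, with Benjamini-Hochberg adjustment over the 210. The fit was tested on simulated data. With 2 arrays a group the number of arrays limits the precision, and an exact permutation test, with 2 against 2, has no way to 0.05.

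Each group lay on 1 of 3 slides of 8 arrays, scanned at times that split them alike. Slide and group means cannot be fitted together, and 10 comparisons lay within 1 slide.

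The members and lists were chosen with earlier results of these data known. The named miRNAs were the members, their passenger strands, the marker and lymphoid lists, and for each member the 3 most and 3 least correlated miRNAs. Statistics of a member are given where the unadjusted p was under 0.05, and other member values, such as those of the test against healthy animals, were added after they were seen. miR-155, miR-486 and miR-17 have no entry under those names. Sequences and positions are from RefSeq (GRCr8). NORA at 34 days carries 1 label line giving 1 hour, against its title and a further line giving 34 days, which were followed. Alternatives were other scalings, background correction, probe averages, the authors' table, other filters and floors, fits on only the arrays compared, a block for the replicate number, array weights, the methods' threshold and leaving out each array. Python 3.11.15 was used for tables and figures.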

Additional observations from a re-analysis of the deposited data

Results flagged for a closer look

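miR-181c*, the passenger strand of the Mir181c hairpin on chromosome 19, gave a signal outside the guide strands that make up the comparisons. It was detected on 4 of 24 arrays and on 0 of the 16 arrays of the NORA, RA, ANE and PLA groups. Its unscaled total intensity was 12.6 in AP replicate 1 at 1 hour, 22.2 and 9.88 in AP replicates 1 and 2 at 34 days, and 10.8 in MTX replicate 1 at 34 days. On AP replicate 1 at 1 hour its scaled value, 5.69, lay below the floor of 5.76. The RefSeq sequence of the strand, with bases 2 to 8 in capitals, is given because it identifies a product of the chromosome 19 cluster.
miR-181c*: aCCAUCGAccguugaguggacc
The 4 arrays had summed intensities of 303079 to 519917, the 4 highest of the 24, and the part of the signal strength in the detection was not tested. In AP at 34 days against RA before therapy its change was 0.46 (SE 0.16, limma adjusted p = 0.0526), which was not called. RA replicate 2 was set to the floor, so this change rests on values at or near the floor. The scaled log2 level was 3.34 and 2.77 in AP at 34 days and 2.85 in MTX replicate 1 at 34 days. On the NORA arrays before therapy, where it was not detected, that level was 2.85 and 3.05.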

How the results depend on the processing

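Of the 19 counts of members called, that for AP at 34 days against RA before therapy, 2, became 0 with the 75th percentile over all miRNAs, the median over miRNAs detected on all arrays, quantile normalisation, normexp, no filter on detection, only the arrays compared, and array quality weights, and ran from 0 to 2 when 1 array was left out. For AP against PLA at 34 days, the count of 0 became 3 without scaling, 2 with no filter on detection, 2 with only miRNAs detected on all arrays and 1 by the methods' threshold, and ran from 0 to 2 when 1 array was left out. For AP at 1 hour against RA it ran from 0 to 2. The total of 2 member calls over all comparisons became 5 without scaling, 4 with only miRNAs detected on all arrays, and 0 with the 75th percentile over all miRNAs, the median, quantile normalisation, normexp, only the arrays compared and array quality weights. The other 281 counts under alternative fits and 75 with 1 array left out stayed within 1.5 times their value. With no filter, values of undetected miRNAs, which carry no measured level, enter the fit. Scaling moves the whole table: the median change of the 132 miRNAs in AP at 34 days against RA was 0.26 as reported and 1.45 without scaling. Without scaling these values reversed: miR-181a to 0.094 and miR-181b to 0.14 in AP at 1 hour, to 0.40 and 0.55 in AP at 34 days against RA, and to 0.38 and 0.70 against PLA. Relative to miR-181a, miR-181b became 0.042, 0.15 and 0.32 in these 3 comparisons, and relative to miR-181b, miR-181a became 0.011 in ANE at 1 hour. The correlations between clusters became 0.47 and 0.46 for miR-181a with miR-181c and miR-181d, and 0.72 for miR-181b with either. The centring on a member was chosen after the data were seen. Apart from these constructions the cause of a change was not tested. Same-numbered replicates shared only a number, with r between their deviations from -0.77 to 0.84 (median -0.03) over 66 pairs of groups, and with the replicate number as a block the count for AP at 34 days against RA was 2 (adjusted p = 0.0333) and no count of member calls moved.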

Other observations

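The nearest other miRNA genes on chromosome 19, Mir23a, Mir27a and Mir24-2, lie on the opposite strand, with 28447 bases between Mir23a and Mir181c. Their products were looked at after the values were seen. miR-23a, miR-27a and miR-24, abundant in myeloid and other blood cells, were each detected on all 24 arrays. In AP at 34 days against RA before therapy, all 3 were called higher, beside 15.7% of the 210 miRNAs tested. miR-23a was at 13.12 and 12.54 in AP against 11.91 and 12.09 in RA (0.83, SE 0.26, limma adjusted p = 0.0407), miR-27a changed by 0.71 (SE 0.22, adjusted p = 0.0406) and miR-24 by 0.78 (SE 0.24, adjusted p = 0.0406). The passenger strand miR-24-2* changed by 0.90 (SE 0.32, adjusted p = 0.0526) and was not called, and miR-23a* and miR-27a* were detected on 0 arrays. Over the 24 arrays, which share the scaling, r with miR-181d was 0.97 for miR-23a, 0.87 for miR-27a and 0.93 for miR-24, beside -0.75, -0.60 and -0.68 with miR-181a, and without scaling the last 3 became 0.45, 0.53 and 0.47. Such likeness was not particular to these neighbours: r with miR-181d was 0.98 for miR-17-5p, 0.97 for miR-130a and 0.97 for miR-128. miR-24 is also made from another locus, and the array reads the sum.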
